A study of Cricetulus griseus with 6 samples.

Results

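The 10 genes described here encode proteins of the extracellular matrix that are not collagens: *Spp1*, *Mamdc2*, *Sparc*, *Thbs1*, *Thbs2*, *Tnc*, *Fn1*, *Postn*, *Vcan* and *Fbln1*. They were found by gene symbol among 27873 entries of each RNA-Seq file, and each symbol stood on 1 row. They were chosen by the measured difference of *Spp1* and *Mamdc2* between the groups of these same libraries, to which kindred matrix genes were added, so the values of the members, their intervals and whether they met the limits of a call are a description, and nothing is supported with them.

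The cells were CHO-T cells, a Chinese hamster ovary cell line that carries mouse T-cadherin (*Cdh13*) cDNA from a retrovirus and was selected with puromycin. All 6 libraries carry this transgene, and whether the line is 1 clone is not given in the sources used here. Cells received a negative control siRNA (3 libraries) or an siRNA against *Xbp1* (3 libraries) and were harvested 48 h later. XBP1 is a transcription factor of the unfolded protein response, and its mRNA is spliced by the sensor IRE1α. RNA-Seq was done to look for pathways behind the lower output of extracellular vesicles after *Xbp1* silencing.

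Matricellular proteins are secreted into the matrix but serve less as scaffold than as signals. They bind integrins, growth factors, proteases and structural matrix proteins, and so tune how firmly cells adhere and how they migrate. As secreted glycoproteins, they are folded and glycosylated in the endoplasmic reticulum, the compartment that the unfolded protein response serves. RNA levels were measured here, not secreted protein.

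Levels are in FPKM, the fragments of a transcript scaled by its length and by the mapped fragments of the library, which allows levels of genes of unequal length to be compared. A gene was tested if its mean over the 6 libraries was at least 0.1 FPKM, which 14361 genes met. Tests were made with limma on log2(FPKM + 0.1), and calls needed an adjusted p under 0.05 together with a log2 fold change (*Xbp1* siRNA minus control) of at least 1 in size. With the pseudocount of 0.1, fold changes of genes of low level are understated. *Xbp1* itself was at 26.0, 26.2 and 28.4 FPKM in the controls and at 2.18, 2.11 and 1.39 FPKM with its siRNA, which is 7.05% of the control mean (log2 fold change of −3.78, adjusted p of 5.61e-06, limma). The steps between low FPKM values gave relative depths of 94.0% to 116% of the first control library, and the correlation across genes between libraries of 1 group was 0.966 to 0.972. The study's methods describe its experiments in general as independent biological ones, while the labels do not say which cultures these libraries came from, so p-values measure the spread between these 6 libraries. Since whole cultures were measured, fewer expressing cells and less RNA per cell cannot be told apart.

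Of the 10 members, 6 passed the filter on low values, *Thbs2* was listed at 0 in every library, and *Tnc*, *Postn* and *Fbln1* were above 0 only under the filter. The 6 genes did not move as a block. *Mamdc2* was the 1 member that met the limits of a call on the higher side and *Spp1* the 1 member on the lower side, which the choice of these genes had fixed. Among all genes tested, 2.69% were called higher and 2.5% lower, or 5.19% in either direction. Without the limit on fold change, *Fn1* also met them on the higher side and *Sparc* on the lower side, beside 20.2% of all genes higher and 20.2% lower, and nothing is read from these counts. *Fn1* was higher and *Sparc* lower with no overlap between the groups but under the limit on fold change, and the groups overlapped for *Thbs1* and *Vcan*. The shares of all tested genes without overlap were 26.1% higher and 25.8% lower. The log2 fold changes ran from −1.11 to 2.73, with a median of 0.10 against 0.01 over all genes tested.

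**Figure D1:**
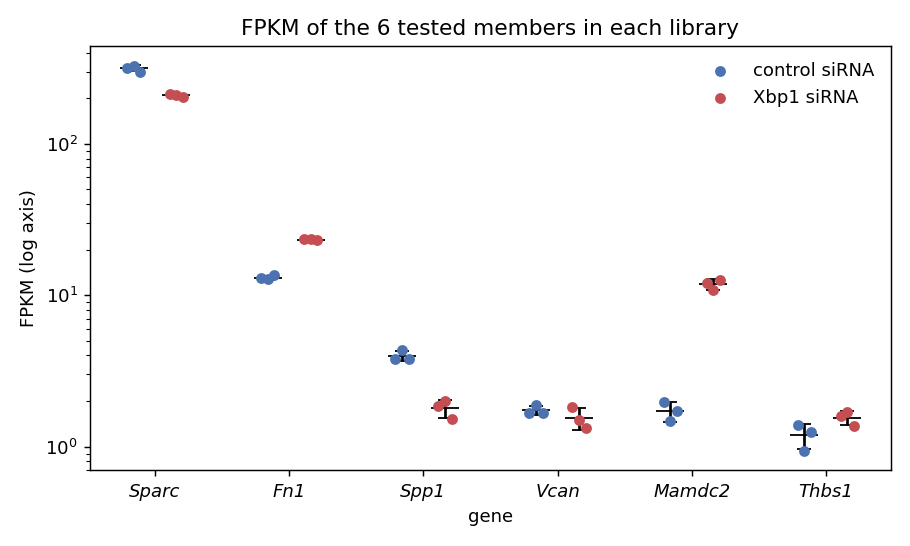
Level of each of the 6 tested members in FPKM, on a log axis, in the 3 control siRNA and the 3 *Xbp1* siRNA libraries. Points are libraries, the dash is the mean and the bars are the SD. The *Mamdc2* points of the *Xbp1* siRNA group lie from 10.8 to 12.7 FPKM, far above the controls at 1.47 to 1.97 FPKM, while *Thbs1* and *Vcan* overlap.

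*Spp1* encodes osteopontin, a phosphorylated glycoprotein that binds integrins and CD44 and is known from bone and from wound repair. Its level was 3.81, 4.35 and 3.80 FPKM in the controls and 1.86, 2.00 and 1.53 FPKM with *Xbp1* siRNA. Every control library was thus above every *Xbp1* siRNA library. The mean was 3.99 ± 0.317 FPKM (SD, n = 3) in the controls and 1.80 ± 0.241 FPKM (SD, n = 3) with *Xbp1* siRNA, or 45.1% of the control mean. The log2 fold change was −1.11 (SE 0.144, 95% interval from −1.45 to −0.78), close to the limit of 1, and with a pseudocount of 1 it was −0.84 and thus within that limit. *Spp1* was a gene of modest level here, as 33.4% of tested genes were below it in the controls and 24.1% with *Xbp1* siRNA.

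*Mamdc2* encodes a secreted proteoglycan built from MAM domains, a fold that is also found in receptor phosphatases and neuropilins. In the controls it was at 1.97, 1.47 and 1.71 FPKM, which correspond to 60, 42 and 51 reads by the steps of its values. With *Xbp1* siRNA it was at 12.1, 10.8 and 12.7 FPKM, or 379, 322 and 449 reads. Every *Xbp1* siRNA library was therefore far above every control library. The control mean was 1.71 ± 0.252 FPKM and that with *Xbp1* siRNA 11.9 ± 0.989 FPKM (SD, n = 3 each), a 6.92-fold difference with a log2 fold change of 2.73 (SE 0.131, 95% interval from 2.42 to 3.03). Its place among tested genes moved from above 24.6% of them to above 52.1%. Across the alternatives of processing its log2 fold change lay between 2.25 and 2.83.

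The order of this pair by level, which follows from the differences they were chosen for, was not the same in the groups. The ratio of *Mamdc2* to *Spp1* FPKM was 0.517, 0.337 and 0.450 in the controls and 6.53, 5.38 and 8.29 with *Xbp1* siRNA. *Spp1* was thus the higher of the pair in every control library and *Mamdc2* in every *Xbp1* siRNA library.

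*Sparc* encodes osteonectin, a collagen-binding and counter-adhesive glycoprotein, and it was by far the highest of the 10. It was at 319, 329 and 300 FPKM in the controls and at 213, 212 and 205 FPKM with *Xbp1* siRNA, with no overlap. The mean of 316 ± 14.8 FPKM (SD, n = 3) compares with 210 ± 4.41 FPKM (SD, n = 3), which is 66.3% of control. The log2 fold change of −0.59 (SE 0.0406, 95% interval from −0.69 to −0.50) was short of the limit on size. *Sparc* was above 98.1% of tested genes in the controls and still above 97.2% with *Xbp1* siRNA. In FPKM its difference between the group means was the largest of the members, although its fold difference was small beside that of *Mamdc2*.

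*Fn1* encodes fibronectin, the glycoprotein that cells assemble into fibrils through integrins. Its level was 12.9, 12.7 and 13.5 FPKM in the controls and 23.4, 23.4 and 23.2 FPKM with *Xbp1* siRNA. These values were tightly grouped, with coefficients of variation of 3.31% and 0.527%, and the groups were well apart. The means were 13.1 ± 0.432 and 23.3 ± 0.123 FPKM (SD, n = 3 each), a 1.79-fold difference with a log2 fold change of 0.83 (SE 0.0503, 95% interval from 0.72 to 0.95). The FPKM are given per gene, so forms of fibronectin that differ by splicing were not separated. As *Sparc* was lower and *Fn1* higher, the ratio of *Sparc* to *Fn1* FPKM was 24.2 ± 1.91 (SD, n = 3) in the controls and 8.98 ± 0.144 (SD, n = 3) with *Xbp1* siRNA.

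*Thbs1* encodes thrombospondin 1, an inhibitor of angiogenesis that binds CD47 and can activate latent TGF-β. It was at 1.39, 0.936 and 1.24 FPKM in the controls and at 1.59, 1.70 and 1.37 FPKM with *Xbp1* siRNA. The lowest *Xbp1* siRNA library was just below the highest control, so the groups overlapped. The log2 fold change was 0.37, with a 95% interval from −0.09 to 0.84.

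*Vcan* encodes versican, a large chondroitin sulfate proteoglycan that binds hyaluronan. Its level was 1.68, 1.89 and 1.66 FPKM in the controls and 1.83, 1.50 and 1.32 FPKM with *Xbp1* siRNA, and the groups overlapped. The log2 fold change was −0.17 (95% interval from −0.57 to 0.23), which was the smallest in size among the tested members.

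The other 4 members were at or near the limit of detection. *Thbs2*, which encodes thrombospondin 2, was listed at 0 in all 6 libraries. *Tnc*, which encodes the anti-adhesive hexamer tenascin C, was listed at 0, 0 and 0.0156 FPKM in the controls and at 0.0299, 0 and 0.0132 FPKM with *Xbp1* siRNA, which is at most 2 reads in a library. *Postn*, which encodes periostin, was at 0.0724, 0.0770 and 0 FPKM in the controls and at 0, 0 and 0.0311 FPKM with *Xbp1* siRNA, again at most 2 reads. *Fbln1*, which encodes fibulin 1 of basement membranes and elastic fibres, was above 0 in 1 control library alone, at 0.0548 FPKM. For *Fbln1* no number of reads could be recovered. No fold change is given for these genes, with 3 reads taken as the floor for *Tnc* and *Postn*, whose differences were not detectable at this depth.

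**Figure D2:**
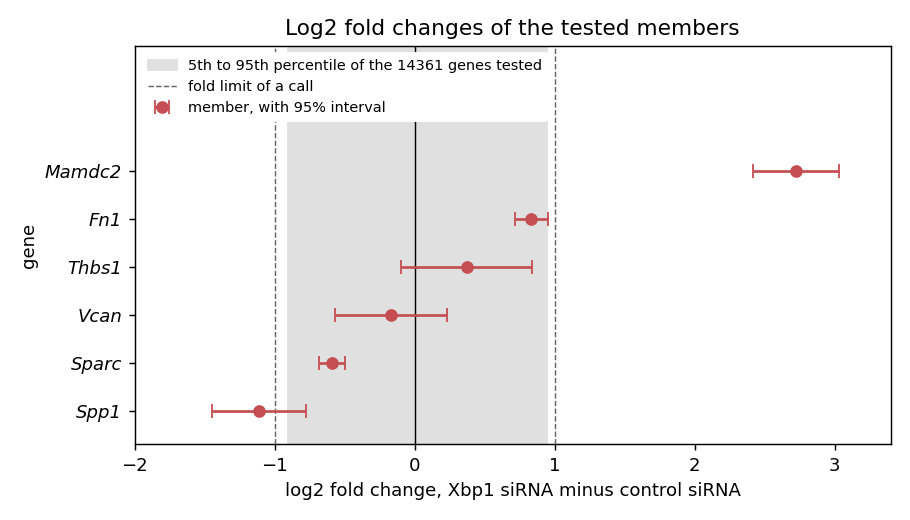
Log2 fold change (*Xbp1* siRNA minus control) of the 6 tested members, with points for the limma estimate and lines for the 95% interval. The grey band holds the 5th to 95th percentile of all 14361 genes tested (−0.90 to 0.95) and the dashed lines mark the limit of 1. *Mamdc2* at 2.73 and *Spp1* at −1.11 lie outside the band, and the other 4 members lie inside it.

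The order of the members in the controls was *Sparc*, *Fn1*, *Spp1*, then *Vcan* and *Mamdc2*, whose ranges overlapped, and *Thbs1*. With *Xbp1* siRNA it was *Sparc*, *Fn1*, *Mamdc2*, and then *Spp1*, *Thbs1* and *Vcan*, of which no neighbours differed beyond their ranges. Summed over the 10 members, the level was 338 ± 14.5 FPKM (SD, n = 3) in the controls and 249.8 ± 4.50 FPKM (SD, n = 3) with *Xbp1* siRNA, and *Sparc* made up 93.5% ± 0.348 and 83.9% ± 0.366 of it. Without *Sparc* the sum went the other way, from 21.8 ± 0.248 to 40.1 ± 0.720 FPKM (SD, n = 3 each). The direction of the sum thus depended on a single gene, *Sparc*. *Mamdc2* and *Spp1* were chosen for their differences, so the difference in the sum without *Sparc*, and in the shares, follows in part from that choice. Within the sum without *Sparc*, the share of *Mamdc2* was 7.87% ± 1.10 in the controls and 29.5% ± 2.14 with *Xbp1* siRNA, and that of *Spp1* was 18.3% ± 1.67 and 4.48% ± 0.637. *Fn1* held close to the same share in both groups, 60.0% and 58.2%.

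**Figure D3:**
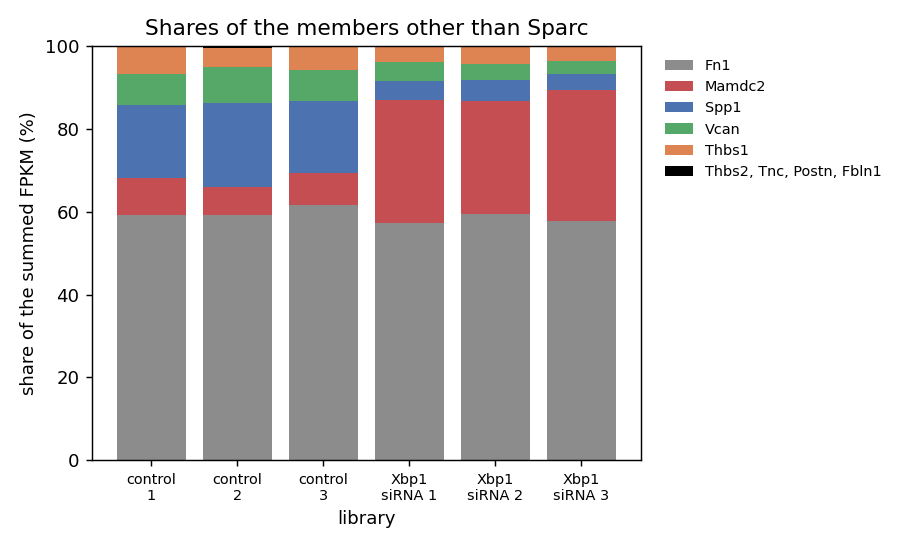
Share (%) of each member in the summed FPKM of the members without *Sparc*, stacked for each of the 6 libraries. *Fn1* takes the largest share in every library, and *Mamdc2* is below *Spp1* in the controls and above it with *Xbp1* siRNA.

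The related genes were taken from 6 lists by function. Of other matricellular proteins, 24 of 26 listed were found and 7 tested, with a median log2 fold change of 0.43 against 0.01 over all genes. By the adjusted p alone, 4 of 7 were higher, where 20.2% of all genes tested were higher and 20.2% lower, and limma found 0 lower at either an adjusted or an unadjusted p under 0.05. *Ccn5* here and *Loxl4* among the enzymes had been seen in a table of the study when the lists were made, so their calls, and the counts that hold them, are not independent evidence. *Ccn5*, a CCN family protein that restrains smooth muscle growth, was the 1 gene called (all genes, 5.19% in either direction). It was at 1.12, 1.27 and 1.50 FPKM in the controls and at 1.93, 3.86 and 2.66 FPKM with *Xbp1* siRNA, with a log2 fold change of 1.01 and an adjusted p of 0.0164 (limma). The call was lost without the first control library (log2 fold change of 0.92, adjusted p of 0.0517, limma) and without the second *Xbp1* siRNA library (0.77). *Thbs3*, a thrombospondin of the pentameric kind, was at 25.8 ± 1.69 FPKM in the controls and 44.9 ± 2.65 FPKM with *Xbp1* siRNA (SD, n = 3 each, adjusted p of 8.22e-05, limma). *Fstl1*, a secreted SPARC-related glycoprotein, was at 80.2 ± 1.01 and 122 ± 4.72 FPKM (SD, n = 3 each, adjusted p of 2.45e-05, limma). *Fstl1* and *Thbs3* were below the limit on fold change, and both were higher in the group where *Sparc* was lower and the groups of *Thbs1* overlapped. For *Ccn1*, an integrin ligand, the log2 fold change was 0.43 (adjusted p of 0.01, limma).

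Of the fibulins and other elastic fibre proteins, 10 were tested, with a median log2 fold change of −0.11. Limma called 0 in either direction (all genes, 5.19%), with 1 higher and 3 lower at an unadjusted p under 0.05 (all genes, 24.6% higher and 24.3% lower). *Ltbp1*, which tethers latent TGF-β to the matrix, came closest, at 123 ± 1.88 FPKM in the controls and 62.9 ± 1.16 FPKM with *Xbp1* siRNA (SD, n = 3 each, log2 fold change of −0.97, adjusted p of 2.17e-06, limma). The fibulins *Efemp1* and *Efemp2* were expressed at 75.9 and 53.4 FPKM in the controls, where *Fbln1* was at the limit of detection. Their log2 fold changes were small, 0.10 (adjusted p of 0.0386, limma) and −0.17 (adjusted p of 0.12, limma). For *Efemp1*, the adjusted p was 0.0816 to 0.104 (limma) when any library but the third control was left out.

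Of 8 tested genes for hyaluronan metabolism and for leucine-rich and related proteoglycans, *Dcn* was called higher (all genes, 2.69% higher). By the adjusted p alone, 3 of 8 were higher and 1 was lower (all genes, 20.2% each), and the median log2 fold change was 0.22. *Dcn* encodes decorin, which binds collagen fibrils and TGF-β. It was at 6.32, 6.81 and 5.98 FPKM in the controls and at 21.8, 22.8 and 22.0 FPKM with *Xbp1* siRNA. This 3.49-fold difference (log2 fold change of 1.79, adjusted p of 3.78e-06, limma) was far larger than the spread in either group. The basement membrane proteoglycan gene *Agrn* was higher with a log2 fold change of 0.38 (adjusted p of 0.000665, limma), the hyaluronidase gene *Hyal2* with 0.18 (adjusted p of 0.014, limma), and the hyaluronan link protein gene *Hapln4* was lower with −0.26 (adjusted p of 0.00312, limma).

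Of 14 tested receptors for these proteins, *Cd47* was called higher (all genes, 2.69% higher). By the adjusted p alone, 7 of 14 were higher and 4 lower (all genes, 20.2% each), and the median log2 fold change was 0.21. CD47 is a receptor of thrombospondin 1 and a ligand of SIRPα. Its level was 1.39, 1.59 and 1.65 FPKM in the controls and 6.63, 6.85 and 6.77 FPKM with *Xbp1* siRNA, a 4.38-fold difference (log2 fold change of 2.06, adjusted p of 1.43e-05, limma). *Itgb1*, the β1 integrin chain that pairs with the α5 chain to bind fibronectin, was at 565 ± 3.86 FPKM in the controls and 365 ± 6.53 FPKM with *Xbp1* siRNA (SD, n = 3 each, log2 fold change of −0.63, adjusted p of 5.61e-06, limma). For *Anxa2*, a receptor of tenascin C, the log2 fold change was −0.55 (adjusted p of 6.73e-05, limma) and *Calr*, which binds thrombospondin 1 at the cell surface and folds glycoproteins in the endoplasmic reticulum was higher by 0.24 on that scale (adjusted p of 0.000551, limma).

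Of 16 tested enzymes and chaperones that act on these proteins, 3 were called higher and limma called 0 lower (all genes, 2.69% higher and 2.5% lower). At an unadjusted p under 0.05 (limma), 2 were lower (all genes, 24.3% lower). By the adjusted p alone, 9 of 16 were higher (all genes, 20.2%), and the median log2 fold change was 0.27. *B3glct* adds glucose to the fucose of thrombospondin repeats. It was at 4.11, 3.17 and 4.13 FPKM in the controls and at 9.38, 10.3 and 9.25 FPKM with *Xbp1* siRNA, a 2.54-fold difference (log2 fold change of 1.33, adjusted p of 0.000145, limma). *Pofut2*, which attaches that fucose, was at 62.5 ± 2.49 and 98.3 ± 4.17 FPKM (SD, n = 3 each, log2 fold change of 0.65, adjusted p of 4.31e-05, limma). Both steps of this glycan were thus higher, 1 of them past the limit on fold change.

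*Fam20c* encodes the Golgi kinase that phosphorylates osteopontin, and it went opposite to *Spp1*. It was at 2.31, 2.01 and 1.35 FPKM in the controls and at 4.38, 3.61 and 3.98 FPKM with *Xbp1* siRNA (log2 fold change of 1.07, adjusted p of 0.00478, limma). The call was lost without the third control library (log2 fold change of 0.85) and, by a hair, without the first *Xbp1* siRNA library (0.999). *Loxl4*, a lysyl oxidase that crosslinks collagen and elastin, was at 15.0 ± 0.183 FPKM in the controls and 31.0 ± 0.218 FPKM with *Xbp1* siRNA (SD, n = 3 each, log2 fold change of 1.05, adjusted p of 4.63e-06, limma). For *Serpinh1*, the collagen chaperone, the log2 fold change was −0.42 (adjusted p of 9.66e-05, limma), and for *Chpf*, a chondroitin polymerase, it was 0.04 (adjusted p of 0.601, limma).

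The 8 tested genes of other MAM domain proteins had a median log2 fold change of 0.30. All were below *Mamdc2*, which was chosen for its difference in these libraries, so nothing is read from that. Limma called 0 of them in either direction (all genes, 5.19%). At an unadjusted p under 0.05 (limma), 4 were higher and 1 was lower (all genes, 24.6% higher and 24.3% lower). Their log2 fold changes ran from −0.20 to 0.97. The most abundant were the neuropilins and a receptor phosphatase. The log2 fold change was 0.70 for *Nrp1* (adjusted p of 6.5e-05, limma), −0.20 for *Nrp2* (adjusted p of 0.00718, limma) and 0.57 for *Ptprm* (adjusted p of 0.000248, limma).

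**Figure D4:**
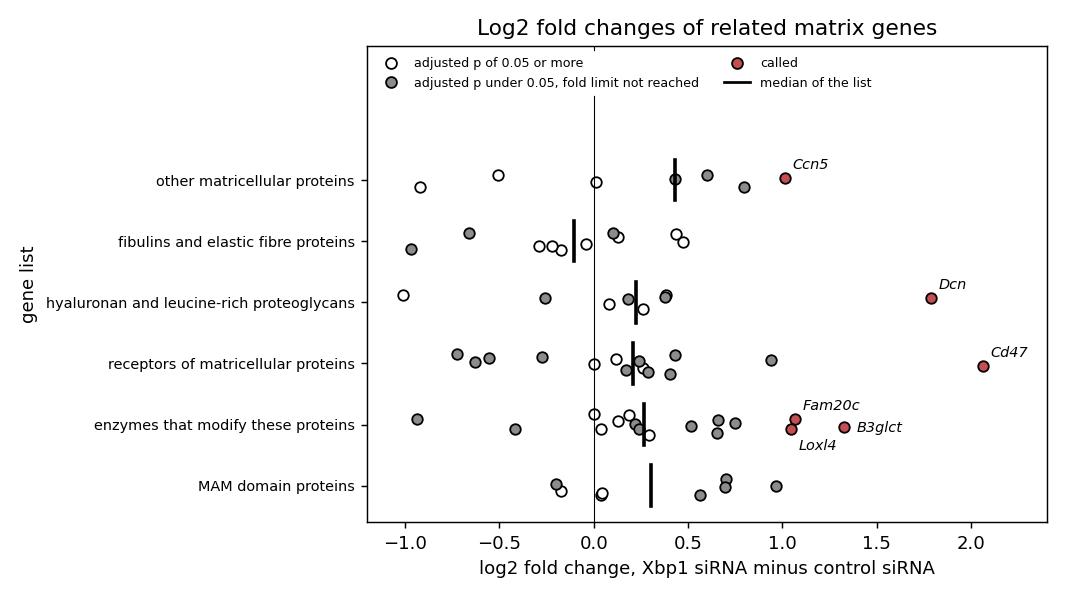
Log2 fold change (*Xbp1* siRNA minus control) of each tested gene in the 6 lists of related genes. White points did not pass the adjusted p of 0.05, grey points passed it alone and red points were called, and the bar is the median of the list. The called genes are *Ccn5*, *Dcn*, *Cd47*, *Fam20c*, *B3glct* and *Loxl4*, all higher with *Xbp1* siRNA.

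Over the 6 libraries, the genes whose log2(FPKM + 0.1) was most like that of *Spp1* were *Kpna6*, *Hmga2*, *Bzw2*, *Errfi1* and *Capn7*, with Pearson's r of 0.998 to 0.999. Those most like *Mamdc2* were *Smpd1*, *Pabpc4*, *Plxnb2*, *Hivep1* and *Ttc17*, each with r of 0.999. With 2 groups apart, any gene that differed between them scores high. Of the 9409 genes searched, 977 and 1086 had an r over 0.95, so these names are a description of the same 6 libraries. Being alike in pattern did not mean alike in size. Beside *Spp1* the log2 fold changes ran from −1.82 for *Hmga2* to −0.27 for *Bzw2*, and beside *Mamdc2* from 0.33 for *Pabpc4* to 1.20 for *Hivep1*.

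Neighbouring genes were looked up in a RefSeq table of the Chinese hamster (assembly CriGri-PICRH-1.0), used for gene order only. *Spp1* lies next to *Ibsp* and *Mepe*, which encode kindred phosphoproteins of bone and were listed at 0 in all 6 libraries. On its other side, LOC100771469 and LOC100755241 had log2 fold changes of 0.11 (adjusted p of 0.215, limma) and −0.00 (adjusted p of 0.982, limma). Beside *Mamdc2*, the transcription factor gene *Klf9* was at 25.1 FPKM in the controls and 14.6 FPKM with *Xbp1* siRNA (log2 fold change of −0.78, adjusted p of 4.69e-05, limma), and for *Smc5*, which encodes a chromosome maintenance protein, the log2 fold change was −0.19 (adjusted p of 0.0248, limma, and 0.0512 to 0.0785 when any library but the second control was left out). LOC100770890 was listed at 0 and LOC100765403 was not matched to the files.

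The cells were checked against markers of the types that could be present. *Vim*, a mesenchymal filament gene, was at 377 FPKM in the controls and 304 FPKM with *Xbp1* siRNA, while *Col1a1*, *Col1a2* and *Thy1* were listed at 0. The other tested mesenchymal markers did not share a direction, with log2 fold changes of 0.65 for *Pdgfra* (adjusted p of 0.00111, limma), −0.65 for *Pdgfrb* (adjusted p of 0.00289, limma) and −0.32 for *S100a4* (adjusted p of 0.106, limma). The summed level of that list was 402 to 426 FPKM in the controls and 324 to 351 FPKM with *Xbp1* siRNA. The label gives ovary as the tissue, and of the granulosa cell markers *Fshr* was listed at 0, with a summed level over the 3 markers found of 4.39 to 6.35 FPKM in the controls and 5.12 to 7.25 FPKM with *Xbp1* siRNA. Of the 4 epithelial markers found, *Krt18* and *Krt19* were listed at 0, and the summed level was 1.83 to 2.16 FPKM in the controls and 4.59 to 5.79 FPKM with *Xbp1* siRNA, with *Epcam* called higher (log2 fold change of 1.32, adjusted p of 0.000256, limma) along with *Cdh1* (1.29, adjusted p of 0.0489, limma), which rested on 1 to 23 reads a library. The call on *Cdh1* was lost when any library but the first control was left out (adjusted p of 0.0824 to 0.145, limma). Over all alternatives of processing, the log2 fold change of *Cdh1* was 0.34 to 1.96. Of the macrophage markers, *Ptprc* and *Adgre1* were listed at 0, and the summed level over the 5 found was 5.18 to 6.21 FPKM in the controls and 7.05 to 8.86 FPKM with *Xbp1* siRNA. Most of that sum was *Cd68*, a lysosomal protein gene and the 1 macrophage marker tested, at 5.62 ± 0.494 FPKM in the controls and 7.79 ± 0.919 FPKM with *Xbp1* siRNA (SD, n = 3 each, log2 fold change of 0.46, adjusted p of 0.0142, limma). Of the endothelial markers, *Cdh5* was listed at 0, and the summed level over the 4 found was 0.104 to 0.412 FPKM in the controls and 0.0262 to 0.123 FPKM with *Xbp1* siRNA. *Pecam1*, the 1 endothelial marker tested, was at 0.268, 0.0472 and 0.209 FPKM in the controls and at 0, 0.0452 and 0.0382 FPKM with *Xbp1* siRNA (log2 fold change of −1.02, adjusted p of 0.165, limma). The part of the mesenchymal, epithelial, macrophage and endothelial markers in the member values was not tested.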

How the data were processed

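The authors sequenced RNA of 6 libraries and deposited 1 table of FPKM values per library. The submitters' processing notes name HISAT2 2.1.0 and Cuffdiff 2.2.1, and the genome build and annotation are not given in the sources used here. FPKM are normalized values, so the count model in the study's methods (DESeq2) was not used. Of the 27873 entries, 10274 were at 0 in every library, and 159 symbols stood on more than 1 row, kept apart. The values summed to between 646651 and 666267 FPKM a library in the controls and between 593487 and 600986 FPKM with *Xbp1* siRNA.

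Genes with a mean of at least 0.1 FPKM over the 6 libraries were put on the log2(FPKM + 0.1) scale and tested, control against *Xbp1* siRNA, by limma 3.58.1 (R 4.3.3, lmFit and eBayes with trend), adjusted by Benjamini-Hochberg over 14361 genes, and called at an adjusted p under 0.05 and a log2 fold change of at least 1 in size. The procedure was run on simulated data in which a small part of the genes was changed, all by the same size above the limit on fold change. That run therefore says nothing of calls near the limit. Tables were made with scipy 1.17.1, pandas 2.3.3 and numpy 2.4.6 under Python 3.11.15.

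Total depth is not given in the files. Where a gene's FPKM fell on whole multiples of 1 step in every library (tolerance of 0.02 reads), the step was taken as 1 read. This held for 38.4% of 500 genes drawn at 1 to 20 FPKM and for 0% after random shifts. The step can still come out too small. In the first control library *Pecam1* at 0.268 FPKM gave 3041 reads, where *Mamdc2* at 1.97 FPKM gave 60. Reads cover counting error only.

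Members and lists were chosen with earlier results of these data known, and *Ccn5* and *Loxl4* had been seen in a table of the study. Named genes are *Xbp1*, the members, the called genes of each list with up to 3 more of the highest mean FPKM, the 5 genes most alike to *Spp1* and to *Mamdc2* by Pearson's r, the 2 neighbours on each side, and genes of the cell type marker lists, of which *Pdgfrb* was added after its values were seen. The genes most alike were sought among those with a mean of at least 1 FPKM and a symbol that does not start with LOC. Alternatives were other pseudocounts (1 and 0.01), filters, normalizations and thresholds, eBayes without trend, the replicate number as a block, and leaving out each library.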

Additional observations from a re-analysis of the deposited data

How the results depend on the processing

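Of 84 alternative values of the 6 tested members, 83 kept their direction and their side of the limits, and the exception was *Spp1* with a pseudocount of 1. Over the alternatives, the log2 fold change was −1.22 to −0.84 for *Spp1*, −0.63 to −0.44 for *Sparc*, 0.79 to 0.86 for *Fn1*, 0.22 to 0.48 for *Thbs1*, −0.29 to −0.07 for *Vcan* and −3.89 to −3.28 for *Xbp1*. For abundant genes of the lists it was 0.22 to 0.57 for *Calr*, −0.64 to −0.41 for *Itgb1*, −0.59 to −0.41 for *Anxa2* and −0.45 to −0.27 for *Serpinh1*. Against 386 genes called higher and 359 lower, a pseudocount of 1 gave 114 and 205, a filter at a mean of 1 FPKM gave 242 higher, and without the limit on fold change there were 2898 and 2904. Leaving out 1 library gave 329 to 380 higher and 346 to 369 lower.

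Without the limit on fold change, calls in the members went to 2 higher and 2 lower, other matricellular proteins to 4 higher, elastic fibre proteins to 1 higher and 2 lower, hyaluronan genes and proteoglycans to 3 higher and 1 lower, receptors to 7 higher and 4 lower, enzymes to 9 higher and 2 lower, and MAM domain proteins to 4 higher and 1 lower. Of all genes tested, 20.2% were higher and 20.2% lower without that limit. A pseudocount of 1 gave 0 members lower and 0 other matricellular proteins higher, and a pseudocount of 0.01 gave 2 receptors and 1 MAM domain gene higher. Quantile normalization gave 0 other matricellular proteins higher and 1 enzyme lower, and no filter gave 1 elastic fibre gene higher. Leaving out 1 library gave 0 to 1 other matricellular proteins higher, 1 to 2 receptors higher, 0 to 1 enzymes lower and 0 to 1 MAM domain genes higher. *Fam20c* was no longer called with a pseudocount of 1 (0.80) or quantile normalization (0.98), nor *Ccn5* (0.70 and 0.89). LOC100755241, near no difference, had a log2 fold change of −0.0350 to 0.0480 when 1 library was left out, above 0 without control replicate 2 (0.00306) and without *Xbp1* siRNA replicate 1 (0.0480). The causes were not tested.

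Libraries with the same replicate number did not deviate together (r of −0.0289, −0.0265 and −0.0124), so the numbers were not taken as a pairing. With the replicate block, 363 genes were called higher and 353 lower, and the counts of called members and list genes were as without it, while the marker *Cdh1* was no longer called (adjusted p of 0.0727, limma) and the adjusted p of *Efemp1*, the 1 elastic fibre gene higher without the limit on fold change, was 0.0599 (limma). For *Efemp1* it was 0.106 with eBayes without trend. Depth limits *Tnc* and *Postn*, which had too few reads for a fold change.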
